A study of Mus musculus with 4 samples.

Results

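The angiotensin and endothelin systems were read through all probe sets annotated to exactly 1 of 8 genes, Ace, Agt, Agtr1a, Agtr2, Cma1, Edn1, Ednra and Ece1. A probe set is a group of short oligonucleotides on the array that together report 1 transcript. Of 22690 probe sets, 8 met this rule, and they covered 6 of the 8 genes, among 12394 genes with such a probe set. Agtr1a and Ednra, the main receptors of angiotensin II and of endothelin-1 on smooth muscle, had no probe set of this kind and were not analysed here. The RNA came from mitral valves of mice and was read on 4 arrays, 1 sample each. The wild-type group (WT, Fbn1 +/+) held 1 array, the heterozygous group (Het, labelled Fbn1 C1039/+) 2 arrays and the homozygous group (Hom, Fbn1 C1039G/C1039G) 1 array. Fbn1 encodes fibrillin-1, the glycoprotein of extracellular microfibrils, and C1039G replaces a cysteine by glycine. The Het labels leave out the substituted residue. Age, sex, strain and the number of animals behind each array are not given in the labels, so the spread between the Het arrays may be technical.

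Angiotensinogen, the product of Agt, is cut by renin to angiotensin I. Angiotensin-converting enzyme (Ace), or some of the mast cell chymases, the family of Cma1, removes its end to give angiotensin II. That peptide acts through the type 1 receptor (Agtr1a), which contracts vessels and promotes matrix deposition, and through the type 2 receptor (Agtr2), which is best known from fetal tissue and often opposes the type 1 receptor. Preproendothelin-1, the product of Edn1, is processed to big endothelin-1, and endothelin-converting enzyme 1 (Ece1) cuts that to endothelin-1, a constrictor peptide of endothelium that signals through Ednra and Ednrb. Both systems are known for effects on fibroblasts and on growth factor signalling in heart and valve tissue.

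The promoters of Edn1 and of Ace are shown first, because Edn1 was highest in both Het arrays and Ace highest in WT by both of its probe sets. Both windows are from RefSeq on build GRCm38.p6, plus strand, and run from 250 bases before to 50 bases after an annotated start. The Edn1 window is chr13:42301226-42301525, and the Ace window is chr11:105967698-105967997, the upstream one of 2 annotated Ace starts. Capitals mark matches, on either strand, to GATAAG (the GATA factor motif), TGACTAA (a form of the AP-1 motif) or ACGTG (the core of the hypoxia response element).
Edn1: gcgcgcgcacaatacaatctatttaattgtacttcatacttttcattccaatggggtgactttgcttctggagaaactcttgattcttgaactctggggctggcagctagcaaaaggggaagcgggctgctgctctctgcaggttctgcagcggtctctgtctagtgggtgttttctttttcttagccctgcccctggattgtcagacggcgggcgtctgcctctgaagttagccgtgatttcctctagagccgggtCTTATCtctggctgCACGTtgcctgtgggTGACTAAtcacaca
Ace: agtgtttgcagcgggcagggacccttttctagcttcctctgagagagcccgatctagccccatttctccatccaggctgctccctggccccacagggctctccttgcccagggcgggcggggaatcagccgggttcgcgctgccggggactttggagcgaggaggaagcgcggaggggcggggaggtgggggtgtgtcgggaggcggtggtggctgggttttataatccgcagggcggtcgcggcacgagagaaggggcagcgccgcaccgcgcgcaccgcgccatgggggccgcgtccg
The Edn1 window held 1 match to each of the 3 motifs, none overlapping another. They began at bases 8, 22 and 37 counted from the annotated start, in the order GATA, hypoxia response and AP-1. All 3 thus lay after that start and none before it. Of 32851 promoter windows of the same length, 7.4% held a GATA match, 2.3% an AP-1 match and 19.6% a hypoxia response match. In the printed Ace window none of the 3 motifs occurred, and its GC content was 69.7% against 51.3% for Edn1. Only these 3 motifs, picked by hand, were searched. The matches and shares therefore describe the windows and do not test Edn1 against Ace or other promoters. A match is a string of letters and does not show binding.

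The values are intensities on a linear scale as deposited, and wherever 4 are listed, WT comes first, then the Het arrays by replicate number, then Hom. The file has no detection calls. A probe set was called near background when its mean over the 4 arrays was at or below 45.6, the 90th percentile of the means of 56 probe sets for genes restricted to other organs, such as sperm protamines and pituitary hormones. For log2 differences, values below 19, the 25th percentile of all values, were set to 19. A limma fit of the 3 groups was made on the 11316 probe sets whose mean reached 62.6 (the median over probe sets), and 5 of the 8 probe sets of these genes entered it. WT and Hom have no replicate, so precision is limited by how few arrays there are. Levels of different probe sets are not comparable with each other.

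Agt and Agtr2 were near background, Ace was read by 1 dim and 1 brighter probe set, and Cma1, Edn1 and Ece1 lay above background on every array. No probe set of these genes passed limma's adjusted threshold of 0.05 for Het against WT, Hom against WT or Hom against Het. In each of these comparisons 0 of 11316 probe sets passed (0%), while 128 (1.13%), 66 (0.583%) and 104 (0.919%) had an unadjusted p under 0.05. The differences below are therefore descriptions of these 4 arrays.

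Of the ligand precursors, Edn1 (1451924_a_at) read 111.2, 205.8, 258.6 and 134.2. Both Het arrays lay above WT and Hom with no overlap, and Hom lay just above WT. Edn1 was 1.85-fold and 2.33-fold higher than WT in Het replicates 1 and 2, and 1.21-fold higher in Hom. Both Het arrays were at least 1.5-fold above WT for 154 of the 11316 probe sets (1.36%). The mean Het minus WT difference was 1.05 log2 units (SE 0.47, limma unadjusted p = 0.044, adjusted p = 1), with the same sign in 2 of 2 Het arrays. It was the 1 probe set of the 5 with an unadjusted p under 0.05 and a higher value, as 61 of all probe sets in the fit were (0.539%). Without the filter on low values the limma unadjusted p was 0.083, so that count was lost. A mean Het difference at least as high was found at 79 of 11316 probe sets (0.698%), and both Het arrays lay above both other arrays at 1549 (13.7%). Hom minus Het was -0.78 log2 units (SE 0.47, limma adjusted p = 1), while Hom minus WT was 0.27 (SE 0.54, limma adjusted p = 1), smaller than its error. The Het arrays were 1.26-fold apart for Edn1, closer to each other than either was to WT or Hom. Edn1 was the 1 probe set of these genes at least 2-fold above WT in Het replicate 2, where 289 of all probe sets compared (2.55%) were.

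Agt (1423396_at) read 7.1, 5.7, 3.3 and 5.6, below the floor of 19 on all 4 arrays. Its mean lay at the 8.2 percentile of all probe sets, so no difference between the genotypes could be read. Angiotensinogen circulates from the liver, and a low transcript in valve says nothing of the peptide there.

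**Figure D1:**
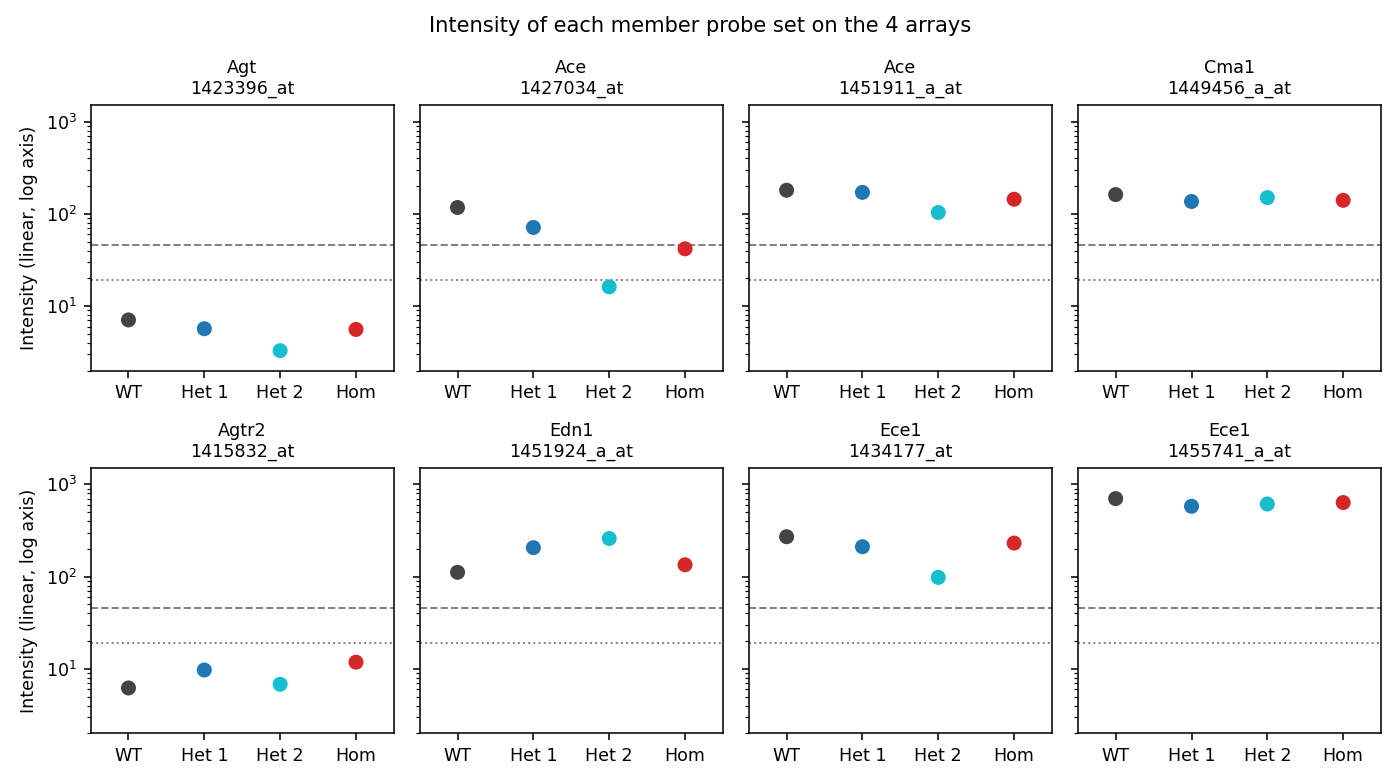
Intensity of each of the 8 probe sets (log axis, linear intensity) on the WT, Het replicate 1, Het replicate 2 and Hom arrays, 1 point per array. The dashed line is the near-background level of 45.6 and the dotted line the floor of 19; Agt and Agtr2 lie below both on every array, and Edn1 is the 1 probe set above background with WT lowest.

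Among the enzymes, Ace was highest in WT by both of its probe sets. The brighter one (1451911_a_at, of a design that reads alternative transcripts of 1 gene) read 180.9, 171.4, 103.8 and 144.5. All 3 mutant arrays lay below WT, Het replicate 1 by only 1.06-fold, Hom by 1.25-fold and Het replicate 2 by 1.74-fold. In the fit, Het minus WT was -0.44 log2 units (SE 0.50) and Hom minus WT -0.32 (SE 0.57), both with a limma adjusted p of 1. The dimmer probe set (1427034_at) read 117.5, 71.4, 16.2 and 41.9. It measured 1.65-fold lower than WT in Het replicate 1. In Hom and Het replicate 2 it lay below the near-background level, 2.80-fold and at least 6.18-fold under WT as read, the latter against the floor. Its mean of 61.8 kept it out of the fit. Without the filter it gave a Hom minus WT difference of -1.49 (SE 1.59, limma adjusted p = 1). Both probe sets had WT above Het replicate 1, and Het replicate 1 above Hom and Het replicate 2, whose values by the dimmer one are not above background and are given without an order.

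Ece1 was also highest in WT by both probe sets, although they disagreed on Het replicate 2. The first (1434177_at) read 270.3, 210.5, 98 and 230.6, so that Het replicate 2 stood apart, 2.76-fold below WT and 2.15-fold below Het replicate 1. The second (1455741_a_at) read 700.1, 577.6, 611.2 and 634.2, with all 3 mutant arrays within 1.21-fold of WT. Het minus WT was -0.91 log2 units (SE 0.54) for the first and -0.24 (SE 0.46) for the second, and Hom minus WT was -0.23 (SE 0.62) and -0.14 (SE 0.54), each with a limma adjusted p of 1. Hom minus Het was 0.68 (SE 0.54) for the first and 0.09 (SE 0.46) for the second, with a limma adjusted p of 1. For the first it was 0.13 without Het replicate 2 and 1.23 without Het replicate 1. The first was the 1 probe set of these genes at least 2-fold below WT in Het replicate 2, where 538 of all probe sets compared (4.75%) were. Between the Het arrays it was again the 1 probe set at least 2-fold apart, where 1130 (9.99%) were in either direction and 691 (6.11%) were lower in Het replicate 2. With median centring or quantile normalization it was less than 2-fold apart there.

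Cma1 (1449456_a_at), the chymase of mast cell granules, read 162.2, 136.5, 150.3 and 140.6. Every value lay within 1.19-fold of WT, and the Het arrays enclosed Hom. Het minus WT was -0.18 log2 units (SE 0.47) and Hom minus WT -0.21 (SE 0.54), with a limma adjusted p of 1. Of 14 probe sets for 10 mast cell markers, Cma1 included, 9 were near background, among them those for the high-affinity IgE receptor subunits Fcer1a and Ms4a2, the granule protease Mcpt4 and the tryptases Tpsb2 and Tpsab1. The granule carboxypeptidase Cpa3 read 171.4, 109.3, 215 and 180.7, above background on every array and lowest, like Cma1, in Het replicate 1. The other mast cell probe sets in the fit were lowest in Het replicate 2, with Kit, the stem cell factor receptor, at 173.1, 115, 84.1 and 160.9 and the transcription factor Gata2 at 482.3, 504.7, 340.4 and 394.3. The summed intensity of the mast cell list was between 90.1% and 91.0% of WT on the 3 mutant arrays, a sum in which Gata2 was the largest term and whose members differed in opposite directions in Het replicate 2. Its part in the Cma1 values was not tested. In bulk tissue, fewer cells of a type and less RNA per cell cannot be told apart.

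Of the 5 probe sets in the fit, WT was the highest array for 4. These were the brighter one of Ace, both of Ece1 and Cma1, all for enzymes. Over all probe sets in the fit, WT was highest for 2264 of 11316 (20.0%). The dim Ace probe set was also highest in WT, but 2 of its 4 arrays lay below the near-background level, so it was not counted. The count was 4 of 5 after quantile normalization too, but 2 of 5 (Ace and 1 of Ece1) when arrays were centred on their medians, which put Het replicate 2 above WT for Cma1 and for the second Ece1 probe set. These 4 probe sets are not independent, as 2 read the same gene, and all differences from WT share 1 array. No probe set in the fit was 2-fold apart from WT in Het replicate 1, where 0.822% of all probe sets compared were higher and 1.18% lower. None was 2-fold apart from WT in Hom either, where 140 (1.24%) were, 0.698% higher and 0.539% lower.

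**Figure D2:**
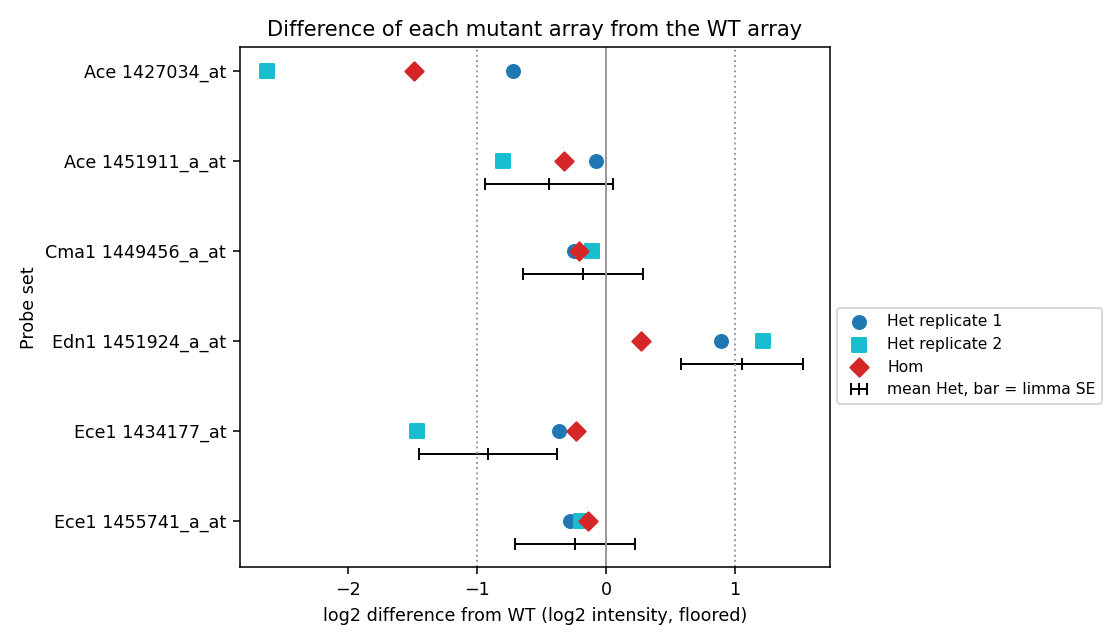
Difference of Het replicate 1 (circle), Het replicate 2 (square) and Hom (diamond) from the WT array in log2 intensity for the 6 probe sets above background; black bars are the mean Het difference with its limma standard error for the 5 probe sets in the fit, and dotted lines mark 2-fold. Edn1 lies right of 0 on every mutant array, from 0.27 to 1.22, and the 5 enzyme probe sets lie left of 0.

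The receptor gene Agtr2 (1415832_at) read 6.2, 9.7, 6.8 and 11.8, below the floor on all 4 arrays. Its mean lay at the 13.1 percentile of all probe sets, and the array order carries no information at this level. The other endothelin receptor, Ednrb, which on endothelium clears endothelin-1 and releases nitric oxide, belonged to a wider list and is given because it is a receptor of the system with a signal. Its brighter probe set (1423594_a_at) read 147.2, 227.8, 105.3 and 209.5. Het replicate 1 and Hom lay above WT and Het replicate 2 below it, so the Het arrays overlapped both other genotypes. Hom minus WT was 0.51 log2 units (SE 0.62) and Het minus WT 0.07 (SE 0.54), with a limma adjusted p of 1. Its dimmer probe set (1426314_at) read 62.3, 55.9, 33.7 and 65.1, also lowest in Het replicate 2. The 2 probe sets disagreed on Het replicate 1, which lay below WT by the dimmer one, where Hom was only just above WT.

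The array of Het replicate 2 stood apart from the others. Its median intensity was 54 against 63.7 to 65.5 on the others, although the trimmed means were all 150.1. Its ratio of 3' to 5' Actb control intensity, a gauge of RNA integrity, was 3.04 against 2.16 to 2.25. By Gapdh the ratio was 4.65 against 3.19 to 4.18, with WT at 4.18, so it stood less far apart. It was the lowest array for 2 of the 5 probe sets in the fit and for 40.7% of all of them. Edn1 and Ace are transcribed in endothelium, and Ece1 is abundant there. Endothelial markers (16 probe sets in the fit, 12 of 13 genes) had a median difference from WT of -0.04 and -0.46 log2 units in Het replicates 1 and 2 and -0.14 in Hom, and 1 of the 16 lay above WT in Het replicate 2. Their summed intensity was 96.9%, 72.2% and 90.6% of WT on the mutant arrays in that order. Ace by its brighter probe set was at 94.7%, 57.4% and 79.9% of WT, and Edn1 at 185.1%, 232.6% and 120.7%. Ace had the same order of arrays as the endothelial sum, with WT highest and Het replicate 2 lowest, and Edn1 was highest where that sum was lowest. The valve interstitial sum, at 82.6%, 54.3% and 82.3% of WT, had the same order too, so it is not particular to endothelial markers. The Ece1 probe sets were at 77.9%, 36.3% and 85.3% and at 82.5%, 87.3% and 90.6% of WT, and neither had that order. WT was highest for 20.0% of all probe sets in the fit, and the share with the full order was not counted. The part of endothelial content in these values was not tested.

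Platelet markers were high on the arrays where Edn1 was high. Their summed intensity over 4 probe sets was 179.9%, 276.1% and 87.2% of WT (mutant arrays in the same order), and all 4 lay above WT in both Het arrays. In Hom 3 of the 4 lay above WT, with a median of 0.28 log2 units, opposite in sign to the sum, as the chemokine Pf4 carried much of the sum and read 964.7 in WT and 721 in Hom. Ppbp, a platelet chemokine precursor, read 73.7, 558.6, 896.2 and 87.6. Macrophage markers summed to 83.1%, 152.9% and 95.1% of WT, erythroid markers to 97.9%, 219.4% and 120.1%, and smooth muscle markers to 115.3%, 152.9% and 114.8%, although the median smooth muscle probe set in Het replicate 2 was at -0.59 log2 units from WT, opposite in sign to the sum. In Het replicate 1, Edn1 and the platelet and smooth muscle sums were above WT, and the macrophage and erythroid sums were below it. The smooth muscle sum was mostly Acta2 and Tagln, with Myh11 and Cnn1 near background. The erythroid sum was mostly Alas2, and 1 of the 3 erythroid probe sets in the fit lay above WT on that array. Cardiomyocyte markers summed to 123.4%, 45.9% and 100.8% of WT, adipocyte markers to 40.8% in Het replicate 2 and 109.4% in Hom, and valve interstitial markers, which fit the labelled tissue and were above background at all 16 probe sets, to 82.6%, 54.3% and 82.3%. In the cardiomyocyte list 19 of 23 probe sets passed the filter. The adipocyte sum was mostly Fabp4 and Lpl, which held all 4 probe sets of that list in the fit. Adipoq and Ucp1 were near background, so that sum is a weak gauge of adipocytes. The part of these cell types in the Edn1 values was not tested.

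**Figure D3:**
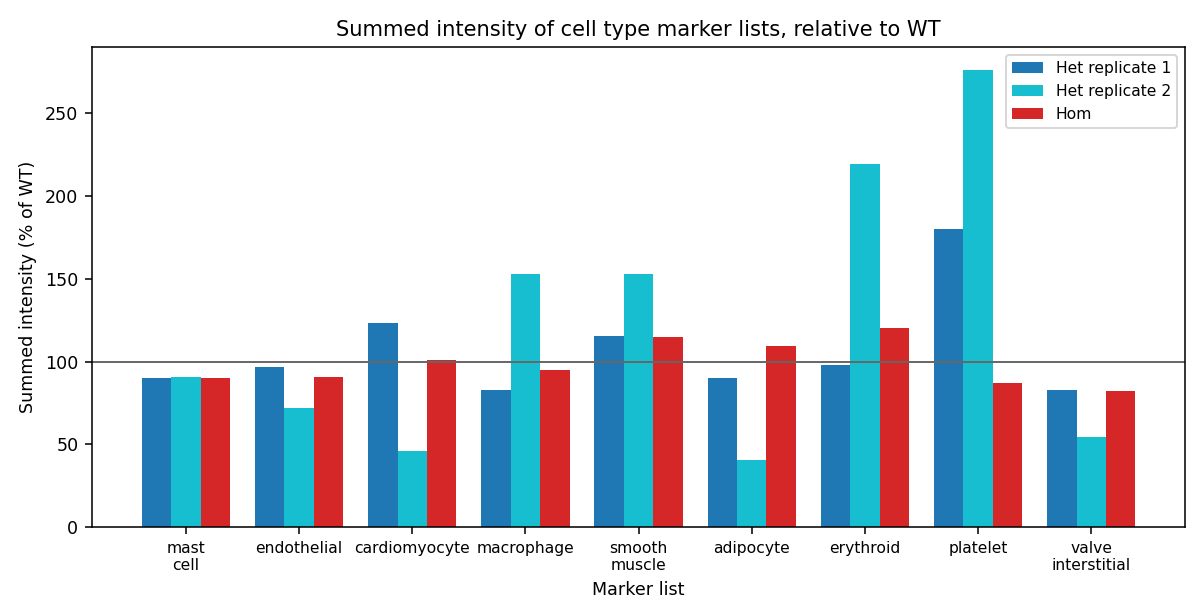
Summed intensity of 9 lists of cell type markers on the Het replicate 1, Het replicate 2 and Hom arrays as a percentage of the WT array (line at 100%), 1 bar per array with no error because each bar is 1 array. Platelet markers are above WT on both Het arrays (179.9% and 276.1%), while cardiomyocyte, adipocyte, valve interstitial and endothelial sums are lowest in Het replicate 2. The adipocyte sum is mostly Fabp4 and Lpl, and the smooth muscle sum mostly Acta2 and Tagln.

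The genes whose pattern over the 4 arrays was most like that of a probe set were found by the root mean square (RMS) difference of mean-centred log2 values, for the 2 probe sets that spanned at least 1 log2 unit. Nearest to Edn1 were Clcc1 (RMS 0.07), an intracellular chloride channel, which read 42.7, 84.7, 110.1 and 51.2, then the prefoldin-like protein Uxt (RMS 0.08) and the SAGA complex subunit Supt20 (RMS 0.08). In all, 3 of 10398 named probe sets lay within 0.1 of Edn1. Nearest to the first Ece1 probe set were Igfbp4 (RMS 0.03), a binding protein of insulin-like growth factors, which read 3716.1, 2932.4, 1386.3 and 3363, then Pitpnc1 and Hnrnpr (both RMS 0.04), with 32 of 10397 probe sets within 0.1. The probe sets of Clcc1, Supt20 and Igfbp4 carry suffixes that mark possible cross-hybridisation. With only 4 arrays, likeness says little.

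Other genes of the angiotensin system, 28 in the list, were represented by 30 probe sets for 22 genes, and 13 probe sets for 10 genes were in the fit. None passed limma's adjusted threshold in any comparison. Their median difference from WT was -0.16 log2 units for mean Het and 0.01 for Hom, beside -0.03 and 0.01 for all probe sets in the fit. No probe set was above WT in both Het arrays and 4 were below it in both, where 25.7% and 28.6% of all probe sets were. Among those named by the rule, Atp6ap2, the prorenin receptor, showed probe sets that disagreed. One (1423662_at) read 731.7, 490.5, 546.3 and 592.4, with WT highest, and another (1439456_x_at, whose probes may cross-hybridise) read 665.2, 588.2, 1001.1 and 566.5, with Het replicate 2 highest. Prcp, a carboxypeptidase that inactivates angiotensin II, read 224.8, 238.1, 123.2 and 217.2, with 1 array apart, Het replicate 2. The lysosomal carboxypeptidase Ctsa read 416.8, 381.6, 606.9 and 429.5, high on that same array. Nln (77.7, 99.6, 67.1 and 91.1), Rnpep (115, 110.2, 96.6 and 129.6) and Prep (116.7, 123.4, 84.3 and 91.9), all peptidases, differed from WT in Hom by 0.23, 0.17 and -0.34 log2 units, each less than its SE of 0.54 to 0.56. The other probe sets of this list in the fit, for Arap1, Cpa3, Ctsd and Dpp3 and further ones for Atp6ap2 and Prcp, had differences between those named for their genotype. Mas1, the angiotensin-(1-7) receptor, was near background.

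The rest of the endothelin list was mostly dim. Of 9 probe sets for Edn2, Edn3, Ednrb, Ece2, Ecel1 and Kel, 2 were in the fit and 5 were near background, including those for the other ligands, Edn2 and Edn3. Ece2, a second converting enzyme, read 112.5, 120.1, 131.7 and 118.8 by its brighter probe set, within 1 SE of WT in both genotypes. Of the 3 endothelin ligand genes, Edn1 was the 1 above background.

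**Figure D4:**
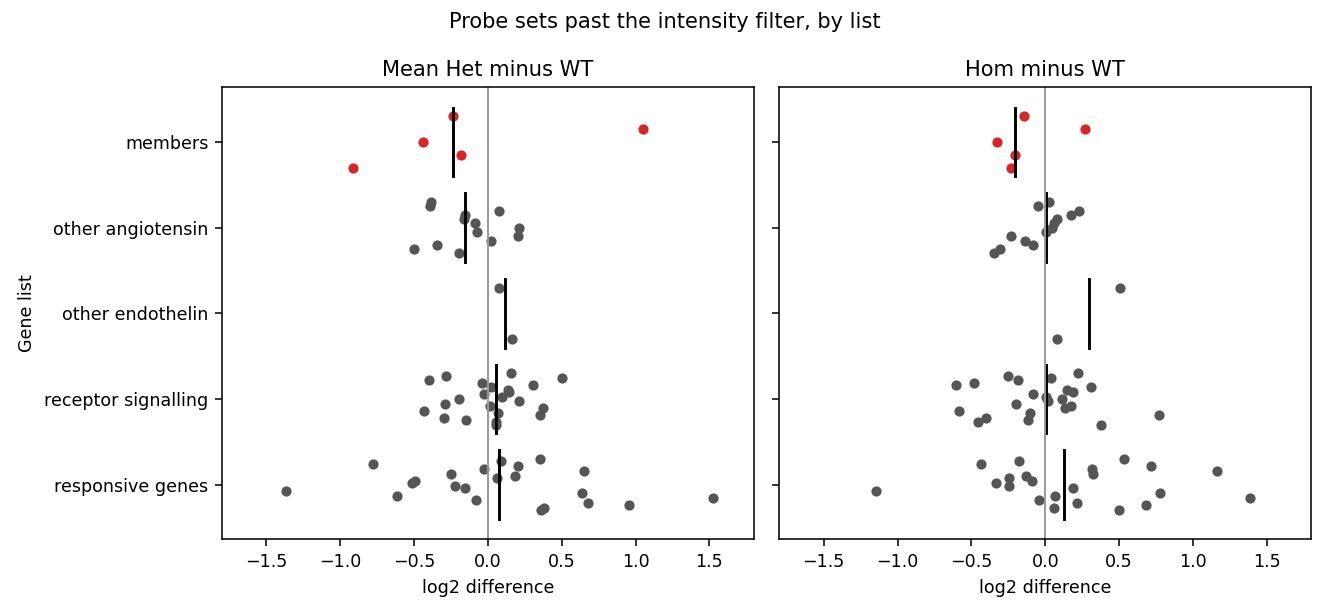
Log2 difference of the mean of the Het arrays (left) and of Hom (right) from WT for probe sets in the fit, 1 point each; black bars are list medians, and the upper row holds the 5 probe sets of Ace, Cma1, Ece1 and Edn1. Edn1 at 1.05 stands at the right of its row for mean Het, and the medians of the other lists lie between -0.16 and 0.12 there.

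Downstream of the receptors, 23 probe sets for 15 signalling genes were in the fit, and none passed limma's adjusted threshold. Their medians were 0.05 log2 units for mean Het and 0.003 for Hom. The highest for Hom was Rgs5, a regulator that shortens Gq signalling in pericytes, at 86, 139.2, 86.8 and 146.4 (0.77, SE 0.57), and its brightest probe set read 376.8, 447.4, 341.1 and 489.2 with the same order of Hom, Het replicate 1 and WT. Jak2, a kinase engaged by the type 1 receptor, read 221.9, 144.4, 186.9 and 147.7 by one probe set, highest in WT, and 82.9, 84.1, 90 and 77.3 by another, with WT below both Het arrays. Gna13, a G protein subunit, read 66.6, 113.7, 59.5 and 43.7 by one probe set and 155.5, 205.6, 198.1 and 170.5 by another, which disagreed on whether Hom lay above WT. Cyba, a subunit of NADPH oxidase that macrophages also carry, read 262.9, 253.4, 548.2 and 269.5, with only Het replicate 2 high. Rac1, a small GTPase of that oxidase, was lowest in Het replicate 2 by one probe set (1632.6, 1574.2, 977.8 and 1439.6) and highest there by another (684, 652.7, 962.9 and 693).

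Genes chosen as responsive to angiotensin or endothelin gave the widest spread, with 22 probe sets for 17 genes in the fit, none past limma's adjusted threshold. Their medians were 0.07 log2 units for mean Het and 0.13 for Hom, and 6 lay above WT and 7 below it in both Het arrays. Rcan1, a calcineurin inhibitor that calcium signalling induces, read 244.8, 476, 472.4 and 392.3, with all 3 mutant arrays above WT (mean Het 0.95, SE 0.46, limma adjusted p = 1). Atf3, a stress-induced transcription factor, read 57.3, 87.8, 91.9 and 128.3, with WT lowest and Hom highest (Hom 1.16, SE 0.54, limma adjusted p = 1). Ccl2, the monocyte chemokine, read 79.9, 140.1, 376.4 and 209.1, lowest in WT and highest in Het replicate 2. Against these, Col1a1, a fibrillar collagen that both peptides can induce, read 1252, 781.3, 301.3 and 566.6, highest in WT, and its other probe set read 1267.5, 931.1, 584.1 and 937.9. The list therefore held members on both sides of WT.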

How the data were processed

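Total RNA of mouse mitral valve was measured on 4 single-colour oligonucleotide arrays. The deposited intensities are linear, 1 per probe set, and the authors' scaling gave each array a trimmed mean of 150.1 with 2% of probe sets left out at each end; the software is not given in the sources used here. Array scaling was kept as deposited, with which the median log2 difference from WT over probe sets in the fit was between -0.07 and 0.01 on the mutant arrays.

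Of 22690 probe sets, 20393 had 1 gene in the platform annotation, 691 several and 1606 none; 20364 symbols were updated by gene identifier, and 64 control probe sets were left out. Intensities were floored at 19 and log2 transformed. Probe sets with a mean of at least 62.6 entered limma 3.58.1 (R 4.3.3, lmFit and eBayes, Benjamini-Hochberg, threshold 0.05), a fit of 3 groups whose 1 residual degree of freedom is the Het pair; WT and Hom were assumed to vary like it. The fit was tested on simulated data, in which the adjusted threshold called no change for Hom against WT at any size simulated and few of 2-fold or 4-fold for the other comparisons, so a lack of calls carries little information. Figures used matplotlib 3.10.9 in Python 3.11.15.

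Every probe set of the 8 genes is reported; in each pathway list the 2 highest and 2 lowest differences from WT were named, for Het and for Hom. The members and lists were chosen with earlier results of these data known. Alternatives were median centring, quantile normalization, no filter, no floor, a filter at the 75th percentile, 1 probe set per gene, eBayes with trend and robust, an allele trend, and leaving out each Het array.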

Additional observations from a re-analysis of the deposited data

How the results depend on the processing

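No probe set of these genes passed limma's adjusted threshold under any alternative with a test. Over all probe sets, the count passing for Het against WT was 0, and it was 1 after quantile normalization, 1 with the filter at the 75th percentile and 3 with eBayes trend and robust; for Hom against Het it was 0, and 1 with eBayes trend and robust. The platelet gene Ppbp was called in each of these, and the cause was not tested. Counts at an unadjusted 0.05 for Het against WT were 128, 177, 41 and 128 in that order, beginning with the setting as reported.

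Of 141 differences of single probe sets recomputed, 133 had the same sign and 8 the other, all for Hom minus Het. Many of the 133 could not differ. Changing the filter, the floor, the probe sets per gene or the eBayes options left each difference as it was. Leaving out a Het array cannot alter Hom minus WT, so the count says little about robustness. Hom minus Het with median centring was -0.034 for Ace and -0.056 for the second Ece1 probe set. In the allele trend, a slope per mutant allele that is not the same quantity, Ace was at -0.16, the Ece1 probe sets at -0.11 and -0.071 and Edn1 at 0.14. Edn1 for Het minus WT ran from 1.05 to 1.16 over the settings with the same contrast and both Het arrays, and from 0.89 to 1.22 with 1 Het array left out. The first Ece1 probe set ranged from -1.46 to -0.36 and Ace from -0.80 to -0.08 when 1 Het array was left out, lower with Het replicate 2 alone. Without Het replicate 2, which leaves no test, Hom minus Het was -0.25 in place of 0.12 for Ace and 0.04 in place of -0.03 for Cma1.

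Added after the data were seen, the first Ece1 probe set was less than 2-fold apart between the Het arrays with median centring or quantile normalization, where 0 of 5 probe sets were. With no filter, 1 of 8 was 2-fold from WT in Hom, the dim Ace probe set. No paired analysis was possible because WT and Hom have 1 array each and share no replicate numbers with the Het pair. Intensity over background limits Agt, Agtr2 and the dim Ace probe set.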
